A study of Mus musculus with 10 samples.

Results

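The claudin and tight junction genes described here were Cldn1, Cldn3, Cldn4, Cldn7, Cldn8, Ocln, Tjp1, Tjp3 and Epcam. They were chosen by name, each through the probe set annotated to that symbol alone, and made up 9 of the 15815 genes tested. Each of the 9 had exactly 1 such probe set, and all 9 passed the filter on dim probe sets. RNA came from epithelial cells sorted from mammary glands of virgin female mice, control or Pygo2 SSKO littermates caged together and 8 to 12 weeks old. The 4 control basal arrays and the 3 SSKO basal arrays held cells high for CD29 and positive for CD24, which include the mammary stem cells (MaSCs). The 3 control luminal arrays held CD29-low, CD24-positive, CD61-negative cells, the mature luminal population. Cells carrying the endothelial, blood or erythroid antigens CD31, CD45 or TER119 were gated out, and no antigen of the sort is a product of the 9 genes. Pygo2 encodes a co-factor of beta-catenin that binds methylated histone H3. The labels do not spell out SSKO, do not give the Cre driver or the genotype of the controls, and do not say how many animals went into a sample. They call the samples biological replicates, and a p-value here speaks only of the spread among such samples.

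Tight junctions seal the gap between neighbouring epithelial cells near their apical surface and set which ions and molecules pass between them. Claudins are the membrane proteins that form the sealing strands, occludin (Ocln) lies in the same strands, and the ZO proteins encoded by Tjp1 and Tjp3 tie the strands to actin beneath the membrane. EpCAM is a surface glycoprotein of epithelia that binds and stabilises Cldn7 protein. In the mammary duct the luminal cells face the lumen and carry the tight junctions, whereas basal myoepithelial cells lie beneath them. Low levels of Cldn3, Cldn4 and Cldn7 are a defining feature of the claudin-low class of breast tumours.

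The promoter sequences of 4 members are shown, chosen by their expression values and their E-boxes. Cldn3, Cldn4 and Cldn7 are the members whose SSKO arrays all lay above the control basal arrays, and Epcam is the luminal member with the most E-boxes. Each line holds the 250 bases before the annotated start, 5′ to 3′ on the gene's own strand, from the RefSeq promoter table on GRCm38.p6. Where a gene had several starts, the most 5′ was taken. Capitals mark the E-box CACCTG or its reverse complement CAGGTG, the core bound by SNAIL and ZEB repressors. The windows are chr5:134985964-134986213 on the plus strand for Cldn3, chr5:134946935-134947184 on the minus strand for Cldn4, chr11:69964529-69964778 on the plus strand for Cldn7 and chr17:87635729-87635978 on the plus strand for Epcam.
Cldn3: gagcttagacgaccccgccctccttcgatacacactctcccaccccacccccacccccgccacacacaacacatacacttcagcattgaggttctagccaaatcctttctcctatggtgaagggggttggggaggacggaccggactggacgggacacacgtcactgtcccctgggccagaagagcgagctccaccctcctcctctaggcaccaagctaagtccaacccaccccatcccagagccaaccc
Cldn4: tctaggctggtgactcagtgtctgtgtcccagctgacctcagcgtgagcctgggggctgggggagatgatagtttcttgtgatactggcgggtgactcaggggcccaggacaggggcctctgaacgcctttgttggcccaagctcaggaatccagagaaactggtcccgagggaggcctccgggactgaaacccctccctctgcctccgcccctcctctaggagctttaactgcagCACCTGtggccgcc
Cldn7: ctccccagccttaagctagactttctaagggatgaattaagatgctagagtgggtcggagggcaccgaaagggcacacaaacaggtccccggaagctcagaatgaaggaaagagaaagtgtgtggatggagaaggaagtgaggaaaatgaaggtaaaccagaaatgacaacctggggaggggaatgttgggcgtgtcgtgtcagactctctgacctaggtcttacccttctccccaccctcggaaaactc
Epcam: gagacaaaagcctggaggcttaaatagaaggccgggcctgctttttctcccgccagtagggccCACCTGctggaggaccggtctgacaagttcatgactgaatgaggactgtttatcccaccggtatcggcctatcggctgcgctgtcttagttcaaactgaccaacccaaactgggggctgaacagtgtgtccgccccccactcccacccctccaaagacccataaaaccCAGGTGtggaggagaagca
The E-box was present in the windows of 3 of the 8 members listed in the promoter table, against 17.1% of 27025 such windows, 1 per gene. It began 14 bases before the start in Cldn4, 187 and 19 bases before it in Epcam and 108 bases before it in Tjp3. Neither strand of the other windows, those of Cldn3 and Cldn7 included, held these letters. The GC box GGGCGG, on either strand, was present in 6 of the 8, against 33% of all windows. The Grainyhead-like site AACNNGTT (3.65% of windows), the TCF/LEF site CTTTGAT (3.26%) and the FOXA site TGTTTAC (3.06%), each searched on both strands, were present in 0 of the 8. No E-box match overlapped a GC box match in these windows, and a match describes the sequence alone.

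All 20 basal and myoepithelial markers, such as Acta2 and Itga6, were called lower in luminal than in control basal cells, and all 15 mature luminal markers, such as Krt8 and Krt18, were called higher. The shares over all genes tested were 19.7% called lower and 24.6% called higher. The basal list includes Itgb1, which encodes the sort antigen CD29, so its difference of -0.78 is not independent of the gate. Array medians lay between 205 and 228 on the deposited linear intensity scale. Summed intensity of the 20 basal markers was 12773 to 16081 in luminal arrays 1 and 2 and 28592 in luminal array 3, against 132160 to 141871 in the basal arrays. Summed intensity of 12 endothelial markers was highest in control basal array 1 (13898) and SSKO basal arrays 1 and 3 (27844 and 15610), against 4490 to 6442 in the other basal arrays and 3478 to 4788 in the luminal arrays. Of 11 fibroblast markers, 10 were called lower in luminal than in control basal cells (median -3.04), with summed intensities of 14849 to 29646 in control basal, 12546 to 18282 in SSKO basal and 1736 to 7103 in luminal arrays, and 3 of 10 immune markers were called lower. Of 9 luminal progenitor markers, 4 were called higher in luminal than in control basal cells (Kit, Elf5, Aldh1a3 and Cd14) and 3 lower (Itga2, Itgb3 and Hey1). Itgb3 encodes CD61, and the luminal cells were sorted as CD61-negative, so its fall is not independent of the gate. No value in the table is 0. The targeted gene, Pygo2, read 6.99, 5.94 and 5.86 (log2) in the SSKO basal arrays, each below the 8.11 to 9.09 of the control basal arrays. Whether its probe set lies in the deleted part was not determined here. In sorted samples, fewer cells of a type and less RNA per cell cannot be told apart.

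The comparison of control luminal with control basal cells asked how the tight junction genes differ between the cell layers. Of the 9 members, 7 rose in luminal cells and 0 fell (limma, adjusted p under 0.05 over all genes tested), where 24.6% of the 15815 genes rose. In each of the 7, the 3 luminal arrays lay above the 4 control basal arrays, as they did in 25.8% of all genes. The median log2 difference was 3.23 over the members and 0.07 over all genes. Cldn1 and Tjp1 did not pass. Every level is log2(intensity + 16), and a fold is taken on that scale, which understates changes of dim genes.

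Among the 5 member claudins, Cldn8 had the largest difference. Cldn8 encodes a claudin of tight, low-permeability epithelia, and it was measured by probe set 10440647. Its log2 levels were 10.92, 11.77 and 11.99 in luminal arrays 1 to 3 and 7.05, 6.21, 7.02 and 6.85 in control basal arrays 1 to 4. The mean was 11.56 ± 0.57 (SD, n = 3) against 6.78 ± 0.39 (SD, n = 4), a difference of 4.78 (SE 0.42, limma adjusted p = 4.38e-06) or 27.4-fold. The basal mean lay beside the dim limit of 6.74, the mean below which a probe set was left out of the tests, and the rise may be larger than measured. Cldn8 thus ran from near the dim limit in basal cells to a bright signal in luminal cells.

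Cldn7, the claudin that pairs with EpCAM, was next among these 5. Probe set 10377673 read 12.38, 12.23 and 12.23 in luminal arrays and 8.39, 8.65, 7.89 and 8.31 in control basal arrays, a rise of 3.97 (SE 0.17, limma adjusted p = 1.82e-08) or 15.7-fold. The luminal arrays agreed to within 0.15 of each other, and their SD was 0.08. Cldn3, a barrier claudin of glandular epithelia measured by probe set 10526241, read 11.84, 11.69 and 11.99 in luminal arrays and 8.47, 8.41, 8.20 and 8.57 in control basal arrays. Its rise was 3.43 (SE 0.13, limma adjusted p = 1.29e-08) or 10.8-fold, and neither group spread by more than 0.37.

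Cldn4, which sits next to Cldn3 on chromosome 5 and encodes a close relative, also separated the layers. Probe set 10534395 read 9.80 in control basal array 1, 10.79 to 11.16 in control basal arrays 2 to 4 and 13.38, 13.37 and 13.57 in luminal arrays. The rise was 2.75 (SE 0.27, limma adjusted p = 1.09e-05) or 6.74-fold. Control basal array 1 was the low value, and without it the difference was 2.46.

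Cldn1, a claudin known from the epidermal barrier, varied most among the basal arrays. Probe set 10438769 read 9.56, 8.08, 10.53 and 9.76 in control basal arrays and 9.52, 10.34 and 10.86 in luminal arrays, and the groups overlapped. The difference was 0.76 (SE 0.48, limma adjusted p = 0.243) with a 95% interval of -0.31 to 1.82. The value moved to 0.29 without control basal array 2 and to 1.12 without luminal array 1.

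The remaining strand and plaque genes divided. Ocln, measured by probe set 10411668, read 7.47, 7.58, 7.76 and 8.64 in control basal arrays and 10.96 to 11.33 in luminal arrays, a rise of 3.23 (SE 0.28, limma adjusted p = 3.60e-06) or 9.41-fold. Tjp3, which encodes the epithelial plaque protein ZO-3 and was measured by probe set 10371111, read 8.23, 8.45, 8.24 and 8.11 in control basal arrays and 11.74, 11.30 and 11.53 in luminal arrays. It rose by 3.27 (SE 0.13, limma adjusted p = 1.41e-08) or 9.64-fold. Both genes were low in every basal array and high in every luminal array.

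Tjp1, which encodes ZO-1, a scaffold also found at other junctions, held nearly one level in every array. Probe set 10564343 read 11.41, 11.62, 11.52 and 11.53 in control basal arrays and 11.32, 11.37 and 11.58 in luminal arrays. The difference was -0.10 (SE 0.11, limma adjusted p = 0.545) with a 95% interval of -0.34 to 0.15. The interval of Tjp1 met none of the intervals of the 7 members that rose.

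Epcam showed a smaller step. Probe set 10447383 read 11.78, 11.63, 11.34 and 11.50 in control basal arrays and 12.69, 12.72 and 12.47 in luminal arrays. The rise of 1.06 (SE 0.13, limma adjusted p = 5.07e-05) amounted to 2.09-fold, the smallest among the 7 members that rose, and the groups did not overlap.

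**Figure D1:**
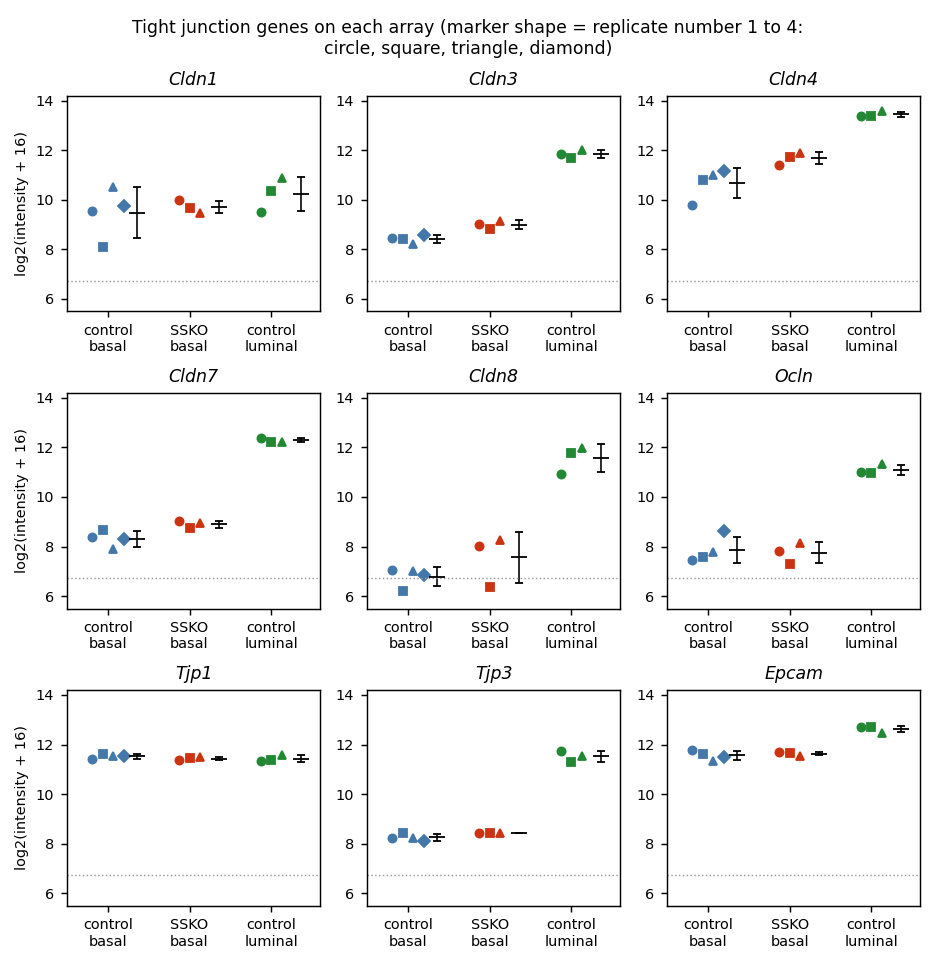
Log2 levels of the 9 genes on each array, by group, with 1 point per array and black bars for the mean ± SD; the dotted line marks 6.74, under which probe sets were dropped as dim by their mean. Luminal points lie above all basal points for 7 genes, whereas Cldn1 overlaps between groups and Tjp1 stays between 11.32 and 11.62.

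Across the wider claudin family the luminal rise was not general. Of 22 further claudin and claudin-domain genes, 20 had a probe set of their own and 14 passed the filter, and of these 14, 3 rose and 3 fell, against 24.6% and 19.7% of all genes. Cldn6, a claudin of embryonic epithelia, rose by 4.63 (SE 0.33, limma adjusted p = 7.81e-07), from 7.66 ± 0.12 (SD, n = 4) to 12.29 ± 0.91 (SD, n = 3). Cldn10, a claudin that forms ion-selective pores, rose by 3.55 (SE 0.26, limma adjusted p = 1.10e-06), and both of its probe sets gave nearly the same difference (3.55 and 3.53). Cldn23 rose by 0.86 (SE 0.16). In the other direction Cldn5, the claudin of endothelial cells, fell by 1.71 (SE 0.63, limma adjusted p = 0.0470), Cldnd1 fell by 1.02 (SE 0.12) and Cldn12 fell by 0.78 (SE 0.20). Cldn5 is itself 1 of the 12 endothelial markers used here. Its control basal levels were 10.38, 9.33, 9.04 and 9.37, with the highest in array 1, and the part of endothelial cells was not tested.

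Of 11 other membrane proteins of the junction tested, 6 rose and 2 fell (24.6% and 19.7% of all genes). The MARVEL-domain relatives of occludin rose, Marveld3 by 3.33 (SE 0.12, limma adjusted p = 9.23e-09) and Marveld2, the tricellulin of corners between cells, by 2.62 (SE 0.24, limma adjusted p = 5.73e-06). Igsf5, a junctional adhesion molecule, rose by 1.35 (SE 0.14) and Ildr1, which recruits tricellulin, by 0.86 (SE 0.14). The adhesion molecules Jam2 and Jam3 fell by 2.59 (SE 0.30) and 1.40 (SE 0.51). Jam3 was at 5.56 ± 0.38 (SD, n = 3) in luminal cells, under the dim limit, and its fall may be larger than measured.

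Plaque and polarity genes moved in both directions. Of 14 plaque and scaffold genes 5 rose and 5 fell, against 24.6% and 19.7% of all genes. Cgn, the plaque protein cingulin, rose by 3.28 (SE 0.12, limma adjusted p = 8.85e-09), the actin-binding adaptor Afdn by 1.11 (SE 0.13) and Cgnl1, the relative of cingulin, by 0.98 (SE 0.18). Mpdz, a multi-PDZ scaffold, fell by 2.89 (SE 0.10, limma adjusted p = 8.28e-09), the angiomotins Amotl1 and Amot by 1.90 (SE 0.16) and 0.58 (SE 0.14), and Magi1 by 0.74 (SE 0.15). Of 13 tested polarity genes 4 rose and 4 fell, near those shares. Crb3, the epithelial Crumbs protein, rose by 2.43 (SE 0.16, limma adjusted p = 4.93e-07) and Pard6g, a Par6 isoform, fell by 2.43 (SE 0.35, limma adjusted p = 1.80e-04). Smaller rises were called for Prkcz (0.56), Pard6a (0.44) and Lin7c (0.36), and smaller falls for Pard3b (-0.73), Pard3 (-0.64) and Lin7a (-0.43). The Prkcz probe sets disagreed in size, at 0.56 for the brighter and 2.62 for the dimmer.

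Of 7 genes whose products act on or bind EpCAM or Cldn7 protein, 4 rose and 1 fell, where 24.6% of all genes rose and 19.7% fell. Prss8, a membrane serine protease, rose by 2.51 (SE 0.18), St14, the protease matriptase that cleaves EpCAM, by 1.58 (SE 0.13), and their inhibitors Spint1 and Spint2 by 2.51 (SE 0.18) and 0.65 (SE 0.14). The limma adjusted p was 8.26e-07 for Prss8, 2.95e-06 for St14, 1.04e-06 for Spint1 and 0.00231 for Spint2. The adhesion receptor Cd44 fell by 2.05 (SE 0.36), with luminal levels of 9.83, 9.46 and 11.40, the highest in the luminal array that also had the most basal marker signal.

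Of 21 factors known to act on junction genes, 7 rose and 6 fell, not far from the 24.6% and 19.7% of all genes. The risers included Foxa1, a luminal pioneer factor (5.35, SE 0.18, limma adjusted p = 7.82e-09), and the epithelial ETS factor Ehf (2.88, SE 0.56). Tfcp2l1, of the CP2 branch of the Grainyhead/CP2 family, rose by 2.79 (SE 0.17), and Grhl1, of its Grainyhead-like branch, by 2.30 (SE 0.18). The fallers were led by the E-box repressors Snai2 (-4.82, SE 0.58, limma adjusted p = 4.41e-05), Zeb1 (-1.56, SE 0.43) and Zeb2 (-1.43, SE 0.26), followed by Twist2 (-0.62, SE 0.21). Foxa1 is itself in the mature luminal marker list and Snai2 in the basal list used here. Both were picked there as known markers of their layer, so their directions add nothing to those lists. Snai2 read 12.12, 11.71, 12.21 and 12.56 in control basal arrays and 6.51, 6.24 and 9.23 in luminal arrays 1 to 3. The luminal levels of Zeb1 (6.44 ± 0.15) and Zeb2 (6.30 ± 0.14; both SD, n = 3) were under the dim limit. Snai2 and the 7 risen junction genes thus had opposite levels in the cell layers, and no test here relates them. Snai1, another E-box repressor of the list, did not pass (0.11, SE 0.31, limma adjusted p = 0.817). Of the Grainyhead-like branch, Grhl2 (-0.07, SE 0.17, limma adjusted p = 0.803) and Grhl3 (-0.29, SE 0.36, limma adjusted p = 0.584) did not pass either. Fibroblast markers also fell between these groups (10 of 11 called), and their part in the falls of Zeb1, Zeb2, Twist2, Jam2, Jam3 and Cd44 was not tested.

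**Figure D2:**
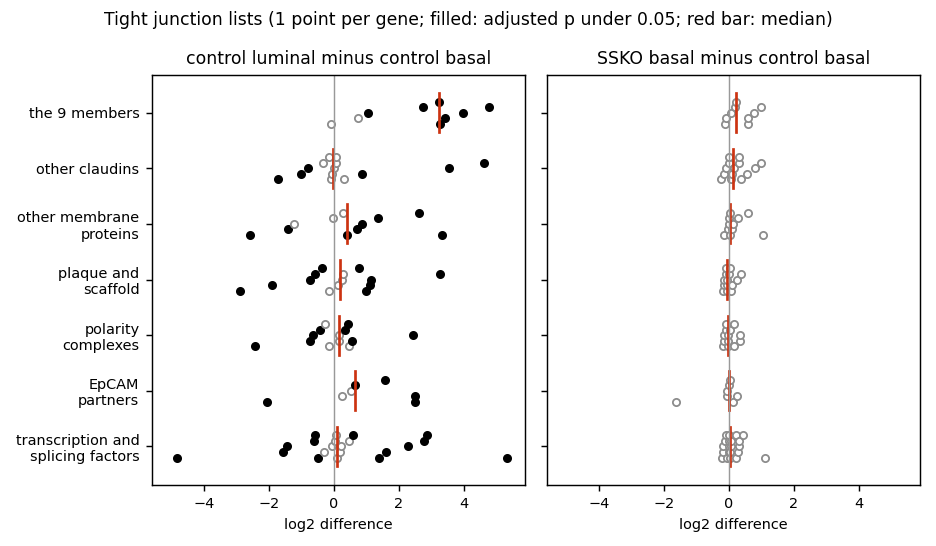
Log2 differences of the genes in each tight junction list, 1 point per tested gene, filled where limma's adjusted p was under 0.05, with red bars for list medians. In luminal against control basal cells the median of the 9 members is 3.23 and the other lists hold points on both sides of 0; in SSKO against control basal cells no point is filled.

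Whether loss of Pygo2 altered these genes was addressed by setting SSKO against control basal cells. None of the 9 members passed (limma, 0 of 9 at an adjusted p under 0.05), where 0.0379% of the 15815 genes were called in either direction. At an unadjusted p under 0.05 there were 3 of 9, namely Cldn3, Cldn4 and Cldn7, against 3.03% of all genes. In these same 3 the SSKO arrays lay above all control basal arrays, a pattern seen in 2.45% of all genes. The median difference was 0.23 over the members and 0.01 over all genes.

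Cldn4 had the largest SSKO difference. It read 11.41, 11.72 and 11.88 in SSKO basal arrays 1 to 3 and at most 11.16 in control basal arrays, so every SSKO array was higher. The mean was 11.67 ± 0.24 (SD, n = 3) against 10.69 ± 0.61 (SD, n = 4), a difference of 0.98 (SE 0.27, 95% interval 0.37 to 1.58, unadjusted p = 0.00453, limma adjusted p = 0.9998) or 1.97-fold. The lowest control array was array 1, and without it the difference was 0.68.

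Cldn3 read 9.01, 8.83 and 9.16 in SSKO basal arrays, above a control maximum of 8.57. Its difference was 0.59 (SE 0.13, 95% interval 0.29 to 0.88, unadjusted p = 0.00113, limma adjusted p = 0.659) or 1.5-fold. Cldn7 read 9.01, 8.74 and 8.96, above a control maximum of 8.65, with a difference of 0.59 (SE 0.17, 95% interval 0.23 to 0.96, unadjusted p = 0.00437, limma adjusted p = 0.9998) or 1.51-fold. The gap between the lowest SSKO and the highest control array was therefore small in Cldn7, and SSKO array 2 was the lowest of its group in both genes.

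Cldn8 did not move as a group. Its SSKO levels were 8.02, 6.38 and 8.27, so arrays 1 and 3 lay above all control arrays and array 2 lay under 3 of the 4. The difference was 0.78 (SE 0.42, 95% interval -0.16 to 1.71, limma adjusted p = 0.9998). It was 1.36 without SSKO array 2 (limma adjusted p = 0.271), 0.42 without SSKO array 3 and 0.54 without SSKO array 1, and it turned to -0.31 when the 3 basal arrays brightest for endothelial markers (control 1, SSKO 1 and SSKO 3) were left out. The last fit, chosen after the data had been seen, leaves 1 SSKO array that is assumed to vary like the other groups.

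SSKO arrays 1 and 3 also had the most endothelial signal, although CD31-positive cells were gated out. All 12 endothelial markers had differences above 0 (median 0.79) and 0 of 12 passed (0.0379% of all genes did). On a scale centred on the 7 basal arrays, the endothelial list stood at 1.70, -1.07 and 0.74 in SSKO arrays 1 to 3 and at 0.72, -0.96, -0.47 and -0.65 in control arrays 1 to 4. Cdh5, the endothelial cadherin, had a difference of 0.93 (SE 0.64) and Eng of 0.58 (SE 0.28). Cldn5, itself 1 of the 12 markers, read 11.72, 8.56 and 11.29 in SSKO arrays (difference 0.99, SE 0.63). Jam3, which is not in that list, read 9.05, 6.56 and 8.43 (difference 1.06, SE 0.51), and neither gene passed the test. The part of endothelial cells in the Cldn8 values was not tested. Without the 3 arrays brightest for endothelial markers the differences were 0.73 for Cldn4, 0.46 for Cldn7 and 0.43 for Cldn3, and that of Ocln went from -0.12 to -0.71, none past the test.

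**Figure D3:**
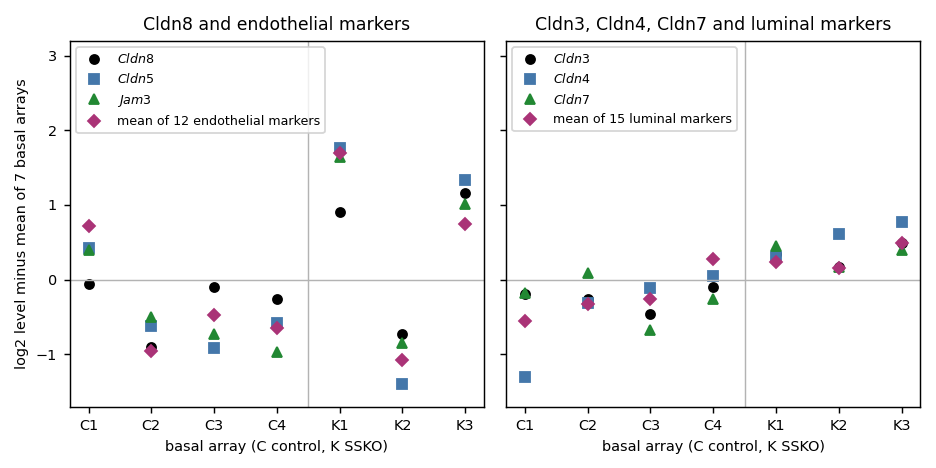
Log2 levels on the 7 basal arrays (C1 to C4 control, K1 to K3 SSKO) relative to their mean, for Cldn8, Cldn5, Jam3 and the mean of 12 endothelial markers on the left and for Cldn3, Cldn4, Cldn7 and the mean of 15 luminal markers on the right. Cldn5 is 1 of the 12 endothelial markers in that mean. On the left, K1 and K3 stand high and K2 low. The endothelial mean of C1 (0.72) is close to that of K3 (0.74), and the log2 level of Cldn8 was 7.05 in C1 and 8.27 in K3. On the right, the SSKO arrays of the 3 claudins stand above the control arrays. The luminal marker mean of C4 (0.27) lies above those of K1 (0.23) and K2 (0.15).

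The other 5 members had small or uneven values in SSKO cells. Tjp3 read 8.43, 8.43 and 8.45, nearly one level, against 8.11 to 8.45 in controls (difference 0.18, SE 0.13, 95% interval -0.11 to 0.47). Epcam read 11.69, 11.64 and 11.55, inside the control range of 11.34 to 11.78 (difference 0.06, SE 0.13, 95% interval -0.22 to 0.35). Tjp1 read 11.36, 11.44 and 11.49 against 11.41 to 11.62 (difference -0.09, SE 0.11, 95% interval -0.34 to 0.16). For Epcam and Tjp1 the intervals leave room only for modest changes. Ocln read 7.82, 7.29 and 8.14 (difference -0.12, SE 0.28, 95% interval -0.73 to 0.50) and Cldn1 read 9.97, 9.67 and 9.48 (difference 0.23, SE 0.48, 95% interval -0.83 to 1.29), and both overlapped with controls. Each of the 5 had a limma adjusted p of 0.9998.

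**Figure D4:**
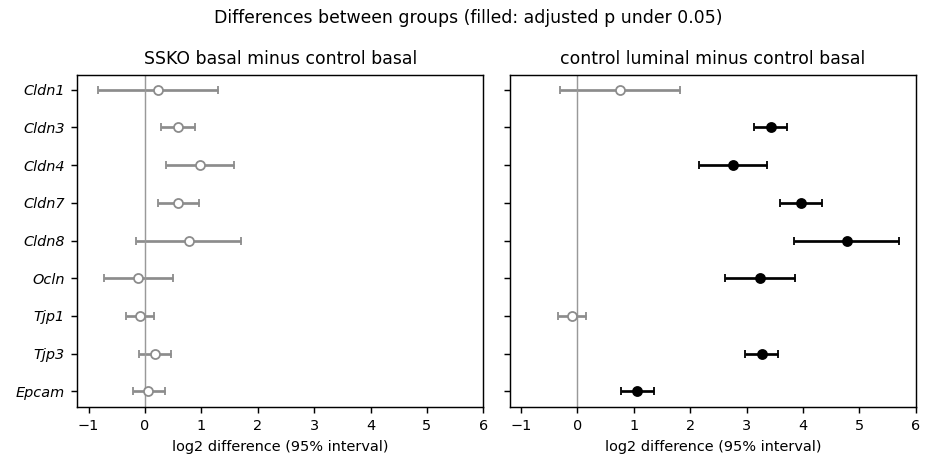
Log2 differences with 95% intervals for the 9 genes, SSKO against control basal cells on the left and luminal against control basal cells on the right, filled where limma's adjusted p was under 0.05. The left intervals of Cldn3, Cldn4 and Cldn7 lie above 0 without passing over all genes, and 7 genes pass on the right.

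Some mature luminal markers were higher in the SSKO basal arrays. Of the 15 tested, 1, Cited1, passed (0.0379% of all genes did) and 5 had an unadjusted p under 0.05 (3.03% of all genes). The median difference was 0.39, against 0.01 over all genes, and 13 were above 0; Esr1 at -0.34, Tbx3 at -0.03 and Gata3 at 0.00 were the lowest. Their summed intensity was 18105 to 27152 in control basal, 27128 to 31357 in SSKO basal and 127373 to 132108 in luminal arrays, so control array 4 overlapped with SSKO array 1. The part of luminal cells in the SSKO values of the claudins was not tested. To set genes side by side, the SSKO mean was placed on the deposited intensity scale between the control basal mean (0%) and the luminal mean (100%). Cldn4 stood at 16.3% (10.3%, 17.2% and 21.4% in SSKO arrays 1 to 3, against -9.11% to 5.77% in control arrays). Cldn3 stood at 5.15% (3.35% to 6.88%, controls -1.44% to 1.16%) and Cldn7 at 3.39% (2.28% to 4.11%, controls -1.85% to 1.68%). Cldn8 stood at 3.43% (-0.97% to 6.42%, controls -1.28% to 0.636%). Epcam stood at 3.65%, with a range of -1.52% to 7.99% that lay inside its control range of -13.4% to 14.5%. Tjp3 stood at 1.51% (1.44% to 1.62%, controls -1.17% to 1.65%) and Ocln at -1.28% (-4.6% to 1.8%, controls -3.52% to 7.83%). The 15 luminal markers ran from -4.9% for Esr1, whose control arrays ran from -9.26% to 11.6%, to 16.2% for Krt19, with a median of 3.02%.

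**Figure D5:**
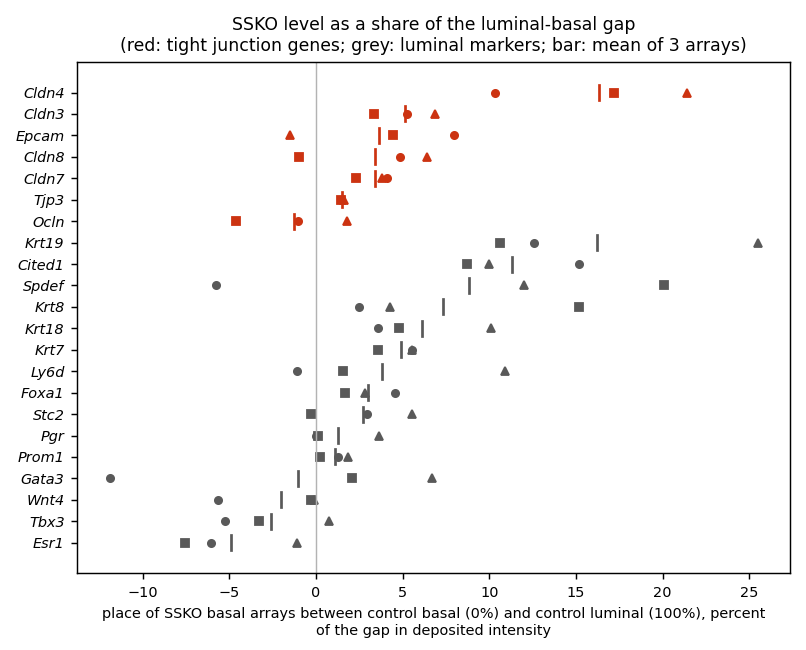
Place of each SSKO basal array between the control basal mean (0%) and the control luminal mean (100%) on the deposited intensity scale, for the 7 members called higher in luminal cells (red) and 15 luminal markers (grey), with bars for the mean of 3 arrays. Cldn4 at 16.3% and Krt19 at 16.2% stand far to the right, and Ocln at -1.28% lies left of 0.

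In the wider lists no junction gene passed in SSKO cells. The counts past limma's adjusted threshold were 0 of 14 further claudins, 0 of 11 other membrane proteins, 0 of 14 plaque genes, 0 of 13 polarity genes, 0 of 7 EpCAM partners and 0 of 21 factors. Among all 15815 genes, 0.0379% passed that threshold and 3.03% had an unadjusted p under 0.05. At an unadjusted p under 0.05 these lists held 2, 1, 1, 0, 1 and 1 genes. They were Cldn10 (0.80, SE 0.26), Cldn18 (0.30, SE 0.13), Marveld3 (0.29, SE 0.12), Cgn (0.37, SE 0.12), Tspan8, a tetraspanin that forms complexes with EpCAM (-1.63, SE 0.29, adjusted p = 0.181), and Foxa1 (1.11, SE 0.18, adjusted p = 0.105). The SSKO mean of Tspan8, 6.23, lay under the dim limit. Among these lists the SSKO arrays lay above all control basal arrays in Cldn6, Cgn and Foxa1, a pattern seen in 2.45% of all genes. They lay below all control basal arrays in Mpdz, Patj and Tspan8. Cldn6 read 8.36, 8.44 and 7.89 in SSKO arrays, against at most 7.77 in control basal arrays (difference 0.57, SE 0.33). The E-box repressors had differences of 0.01 (SE 0.58) for Snai2, 0.44 (SE 0.43) for Zeb1 and 0.30 (SE 0.26) for Zeb2. Snai2 thus read 11.84, 12.12 and 12.52 in SSKO basal arrays, within its control range. Zeb1 read 9.23, 7.37 and 8.73 in SSKO arrays 1 to 3, and Zeb2 read 8.26, 7.32 and 8.50. Both were lowest in array 2, as was the mean of the endothelial markers, and the part of endothelial cells in these values was not tested.

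SSKO basal cells were also set against control luminal cells, a comparison in which genotype and cell layer differ together. It shares its arrays with the other comparisons. All 7 members that rose in luminal cells were lower in SSKO basal than in luminal cells (limma, 7 of 9 called lower), where 23.3% of all genes were called lower. The differences were -4.00 for Cldn8, -3.37 for Cldn7, -3.35 for Ocln, -3.09 for Tjp3, -2.84 for Cldn3 and -1.78 for Cldn4, and Epcam was 2-fold lower. Cldn1 (-0.53, adjusted p = 0.466) and Tjp1 (0.01, adjusted p = 0.971) did not pass. The order of group means was thus luminal, SSKO basal, control basal for Cldn1, Cldn3, Cldn4, Cldn7, Cldn8, Tjp3 and Epcam. SSKO and control basal means did not differ past the threshold for any of the 9, and Ocln and Tjp1 were the members whose SSKO mean was not above the control mean.

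Across the 10 arrays the members other than Cldn1 and Tjp1 shared the step between cell layers. As a description, Pearson's r over 10 arrays was 0.99 between Cldn3 and Tjp3 and 0.93 between Cldn3 and Cldn4, and from -0.18 to 0.54 between Cldn1 and the others. Tjp1 had negative values with every other member, from -0.43 to -0.18. The genes with the most similar levels were Pkp2 (r = 0.997) and Mlph (0.996) for Cldn3, Krt19 (0.976) and Akt1s1 (0.975) for Cldn4, Cmtm8 (0.997) and Cystm1 (0.996) for Cldn7, and Gdpd1 (0.992) and Myzap (0.989) for Cldn8. They were Abcg1 (0.994) and Zbtb7b (0.993) for Ocln, Lasp1 (0.998) and Arfgef3 (0.997) for Tjp3, and Guk1 (0.991) and Uxs1 (0.990) for Epcam. Cldn1 was most like Adh1 (0.925) and Ubap2l (0.914), and Tjp1 most like Cpeb2 (0.961) and Zfp655 (0.895). Only 3 groups lie behind these values, so they carry no more than the group pattern and each array's own deviation.

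In the RefSeq gene order, the adjacent protein-coding genes Cldn4 and Cldn3 on chromosome 5 both rose in luminal cells, as did Ocln and its neighbour Marveld2 on chromosome 13. Adjacency did not extend the rise to all neighbours. Slc2a4, the glucose transporter gene beside Cldn7 on chromosome 11, fell by 2.43 (limma adjusted p = 1.25e-05). Elp5, also beside Cldn7 (-0.31), Apba3 beside Tjp3 (0.16) and Calm2 beside Epcam (-0.44) did not pass. Cldn1 and Tjp1 did not pass themselves. P3h2, a collagen prolyl hydroxylase gene beside Cldn1 on chromosome 16, fell by 2.97 (limma adjusted p = 5.96e-05). Nsmce3 and Tarsl2, the neighbours of Tjp1, did not pass (-0.19 each). Abhd11, on the far side of Cldn3, rose by 0.60 (limma adjusted p = 0.0381) and Mettl27, on the far side of Cldn4, by 0.95 (limma adjusted p = 0.00262). Pip5k1c, beside Tjp3 on chromosome 10, rose by 0.39 (limma adjusted p = 0.0160). Over all genes tested, 24.6% were called higher and 19.7% lower.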

How the data were processed

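Total RNA from sorted cells was measured on 10 Affymetrix arrays, 1 per sample, with groups taken from the sample titles. The authors deposited 1 linear intensity per probe set and array. Per the submitters' processing notes, Affymetrix Expression Console 1.1 and PLIER 2.0 were used, with no step assigned to either, and the sources used here give no normalization between arrays. Of 28815 probe sets, 21780 had exactly 1 symbol in the platform annotation, 1605 had several and 5430 had none; those with 1 symbol were used, updated through the RefSeq gene table where it matched (21757).

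Values were taken as log2(intensity + 16). Probe sets in the lowest 25% by mean over all arrays (under 6.74) were dropped, which kept 21611, and each gene was represented by its brightest probe set, giving 15815 genes. All 10 arrays entered 1 limma 3.58.1 model in R 4.3.3 (lmFit, eBayes) with a mean per group, which left 7 residual degrees of freedom. Tests were two-sided, with Benjamini-Hochberg adjustment across every tested gene and 0.05 as the threshold for a call. The code was tested on simulated data. Figures were drawn with matplotlib 3.10.9. The number of arrays limits the precision, and no detection calls, scan dates or batch labels were used.

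The members, gene lists and tests were chosen with earlier results of these data known. The named genes were all 9 members; from each junction list up to 4 called genes with the largest difference in each direction in luminal against control basal cells and the 2 of smallest p in SSKO cells; the 2 brightest genes of each marker list; and the 2 genes most correlated with each member, predicted gene models left out. Of the plaque genes so named, 1 is not reported here. A gene named outside that rule (Krt19, Cited1, Esr1 and the chromosomal neighbours, among others) was chosen after its values were seen, and the promoter motifs were chosen after the expression values were seen. Markers of luminal progenitor cells (Itga2, Lbp), immune cells (Cd74, Cd68), fibroblasts (Dcn, Col1a2) and adipocytes (Fabp4, Lipe) were checked as well. In SSKO against control basal cells, 0 of 9, 0 of 10, 0 of 11 and 0 of 7 tested genes of these lists passed with limma, and 0, 0, 2 and 2 had an unadjusted p under 0.05. The shares over all genes were 0.0379% and 3.03%. Same-numbered control and SSKO basal arrays did not all deviate together (correlations of 0.63, 0.46 and 0.05), and replicate numbers were not treated as pairs. Control array 4 and SSKO array 3 had a correlation of 0.43, and the remaining control and SSKO basal pairs ran from -0.44 to 0.17. A fit that pairs control array 4 with SSKO array 3 was not run.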

Additional observations from a re-analysis of the deposited data

Results flagged for a closer look

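Of 66 named genes checked in the group of 4 control basal arrays, 1 had an array far from the others. Pard6a, a Par6 polarity gene, read 7.49 in control basal array 2, against 7.28 to 7.31 in the other 3. Chance flags about 1 in 20 groups of this kind. None of the 9 members was flagged.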

How the results depend on the processing

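The counts of members called, 7 in luminal against control basal cells, 0 in SSKO against control basal cells and 7 in SSKO basal against luminal cells, were the same in all 22 alternative fits. These used a pseudocount of 1 or 64, quantile normalization, median centring, no filter or a 50% filter, the mean over probe sets, the compared groups alone, the replicate number as a block, limma's trend, array weights, each array left out in turn, and the 3 arrays brightest for endothelial markers left out together. Directions of uncalled differences did turn. In SSKO against control basal cells, a replicate block gave Ocln a value of 0.14, Cldn8 was -0.31 without the 3 endothelial-bright arrays, and without 1 array each Cldn1 ran from -0.24 to 0.58, Ocln from -0.31 to 0.14 and Epcam from -0.01 to 0.14; Cldn1 turned without control array 2, Ocln without control array 4 (0.14) or SSKO array 2 (0.11), and Epcam without control array 3. In SSKO basal against luminal cells, Tjp1 was -0.08 after median centring and ran from -0.05 to 0.09 without 1 array each. The replicate block, which went by number and so set SSKO array 3 with control array 3, changed no call among the members. Over all genes the count called in SSKO against control basal cells was 6, with 3 after quantile normalization, 1 without SSKO array 3, 2 without control array 2, 27 without SSKO array 2 and 0 without the 3 endothelial-bright arrays. The cause was not tested.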
